A study of Mus musculus with 24 samples.

Results

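The Hox genes of clusters A to D were followed in brain pericytes and brain endothelial cells of mouse embryos. Members were taken by symbol, as every gene named Hox with a cluster letter from a to d and a number, in any of 3 tables of mutant against control. Of 39 such genes in the mouse annotation, 14 had a row in at least 1 table, among 25471 genes in all. No Hox gene was listed in all 3 tables, and the other 25 had no row in the tables as used here and were not analysed here.

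Messenger RNA was sequenced from sorted cells in 24 libraries, to find the pericyte genes that depend on ALK5 while brain vessels form. All mice carried Pdgfrb-Cre and the reporter allele Zs/+, described in the study as ZS green. Control embryos were Alk5(flox/+), with 1 floxed copy, and mutant embryos were Alk5(flox/flox), with 2 floxed copies, and the mutants are labelled GMH-IVH. Alk5 is the older name of Tgfbr1, the type I receptor for TGF-beta. Pericytes came from E11.5 embryos (4 control and 4 mutant samples) and from E13.5 embryos (4 control and 4 mutant samples). Endothelial cells came from E13.5 embryos (5 control and 3 mutant samples), where E counts days of embryonic development. The Pdgfrb promoter that drives Cre is active in pericytes and in other mural and mesenchymal cells, so the recombined cells are not pericytes alone, and the controls carry the same Cre and a floxed allele of their own.

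Hox genes encode homeodomain transcription factors that tell cells where they lie along the axis from head to tail. Within a cluster the genes lie in the order of their expression along the body: paralogue groups with low numbers are used in the hindbrain and neck, and groups with high numbers in the trunk, limbs and tail end. Forebrain and midbrain, and the neural crest that forms the mesenchyme of the front of the head, are known for lacking Hox expression, and position there is marked by other factors such as Otx2, Emx2 and En1.

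The values are the authors' group means of normalized read counts, 1 per group and gene. The values of single libraries were not used here, so neither the overlap of groups nor a spread per library can be given. The standard error (SE) of a log2 ratio and its 95% interval were worked out from the authors' ratio and p-value. A gene is said to rise, fall or be called where the authors' false discovery rate (FDR), the adjusted p of DESeq2, was under 0.05 in their table. Levels of different genes are compared per kilobase of exon. The tables were normalized separately, so across tables a level is given by its percentile among all genes of its table.

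Bases upstream of the transcription start are shown for the 3 Hox genes that lead these tables: Hoxd1 had the highest level per kilobase in E13.5 pericytes, Hoxd8 the highest in E13.5 endothelial cells and Hoxa2 the highest in E11.5 pericytes. Each run holds the 250 bases before the start, from RefSeq on GRCm38.p6, read 5′ to 3′ on the strand of the gene. The Hoxa2 run is chr6:52164832-52165081 on the minus strand, the Hoxd1 run chr2:74762730-74762979 on the plus strand and the Hoxd8 run chr2:74704365-74704614 on the plus strand. Capitals mark matches to the motifs described after them.

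Hoxa2: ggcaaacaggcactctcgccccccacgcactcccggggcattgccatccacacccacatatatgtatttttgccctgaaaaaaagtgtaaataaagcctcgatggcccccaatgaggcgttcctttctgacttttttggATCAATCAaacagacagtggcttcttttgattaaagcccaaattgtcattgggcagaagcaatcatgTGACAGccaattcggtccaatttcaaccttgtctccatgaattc
Hoxd1: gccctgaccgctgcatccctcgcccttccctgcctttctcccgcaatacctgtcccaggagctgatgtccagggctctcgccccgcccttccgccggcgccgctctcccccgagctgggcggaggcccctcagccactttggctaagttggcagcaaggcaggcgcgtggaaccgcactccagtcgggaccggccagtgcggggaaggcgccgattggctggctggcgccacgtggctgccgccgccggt
Hoxd8: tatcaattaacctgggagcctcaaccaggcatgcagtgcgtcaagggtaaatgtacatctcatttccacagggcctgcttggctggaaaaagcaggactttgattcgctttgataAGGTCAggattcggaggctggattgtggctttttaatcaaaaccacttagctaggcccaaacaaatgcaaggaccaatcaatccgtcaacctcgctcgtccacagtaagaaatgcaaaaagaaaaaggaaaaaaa

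The motifs searched on both strands were TGATNNAT, a joint site of PBX and HOX proteins, TGACAG, a site of MEIS proteins, AGGTCA, a half-site of retinoic acid receptors, GTCTAGAC, a SMAD site, and TATAAA, the TATA box. In the Hoxa2 run the capitals mark a PBX-HOX match on the other strand, which starts 111 bases before the transcription start, and a MEIS match on the gene's own strand, which starts 44 bases before it. In the Hoxd8 run they mark the retinoic acid half-site, on the gene's own strand, which starts 135 bases before the transcription start. No searched motif was found in the Hoxd1 run, which is all in lower case. Of the 14 Hox genes, 10 had an entry in the RefSeq table. Among them, 1 of 10 held the PBX-HOX letters and 1 of 10 the MEIS letters, in both cases Hoxa2, against 7.68% and 15.9% of all 32851 promoters of this length. The half-site was in 5 of 10 (Hoxb4, Hoxd3, Hoxd4, Hoxd8 and Hoxd10), against 14.02% of all promoters. The SMAD letters were in 0 of 10 (0.167% of all promoters) and the TATA box in 1 of 10, Hoxd4 (12.4% of all promoters). The Hoxd1 run held 24 CpG dinucleotides, the 88.0th percentile of all promoters, and the Hoxd8 and Hoxa2 runs held 6 each, the median of all promoters. A match is a description of letters only.

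In the cells labelled endothelial, the 10 endothelial markers had a median level per kilobase at the 95.7th percentile of gene levels and the 10 listed pericyte markers at the 32.8th percentile. In E13.5 pericytes the pericyte markers lay at the 77.1st and the endothelial markers at the 38.6th percentile, and the 8 fibroblast and meninges markers lay above both, at the 96.7th. At E11.5 the same 3 lists lay at the 65.6th, 25.7th and 88.7th percentiles. Tgfbr1, the targeted gene, was not called in any of the authors' deposited tables: the mutant and control means were 6196 and 4609 in E11.5 pericytes (FDR 0.399), 5823 and 5700 in E13.5 pericytes (FDR 1.00) and 2849 and 3066 in endothelial cells (FDR 0.859). A gene total cannot show the loss of floxed exons alone. Xist, the RNA of the inactive X chromosome, had a mean of 5.73 in E13.5 mutant pericytes and 36145 in their controls in the authors' deposited table. Those groups thus differ in the share of female cells, and sex and genotype cannot be told apart in that comparison. Xist had no row for E11.5 pericytes or endothelial cells, so the sexes of those groups were not compared. In such bulk samples, fewer cells of a type and less RNA per cell cannot be told apart either.

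The 3 tables listed different stretches of the Hox clusters. Of 25471 genes in all, 21860 were listed in E11.5 pericytes, 23792 in E13.5 pericytes and 20523 in endothelial cells. The filters behind the rows are not given, so a gene without a row cannot be called silent. The E11.5 pericyte table listed 3 Hox genes, all of paralogue groups 1 to 3, among them Hoxa2 and Hoxd1. The E13.5 pericyte table listed 9, from group 1 to group 9: Hoxd1, Hoxa2, Hoxb2, Hoxb3, Hoxd3, Hoxd4, Hoxc5, Hoxd8 and Hoxd9. The E13.5 endothelial table listed 7, from group 4 to group 10: Hoxb4, Hoxd4, Hoxa7, Hoxd8, Hoxa9, Hoxd9 and Hoxd10. Both pericyte tables listed Hoxa2 and Hoxd1, both E13.5 tables listed Hoxd4, Hoxd8 and Hoxd9, and no Hox gene was shared by the E11.5 pericyte and the endothelial table.

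Counted as above a mean of 10 over both groups were 1 of 3 listed Hox genes in E11.5 pericytes, 9 of 9 in E13.5 pericytes and 5 of 7 in endothelial cells. Just above that line were Hoxd10 in endothelial cells at 10.5 and Hoxd9 in E13.5 pericytes at 10.8, all in the authors' deposited tables. Endothelial Hoxd4, at 8.88, and Hoxb4, at 4.29, were under it, as was Hoxd1 in E11.5 pericytes, at 6.27. The median gene had a mean of 197, 218 and 279 in these 3 tables, so most Hox genes were among the low genes.

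**Figure D1:**
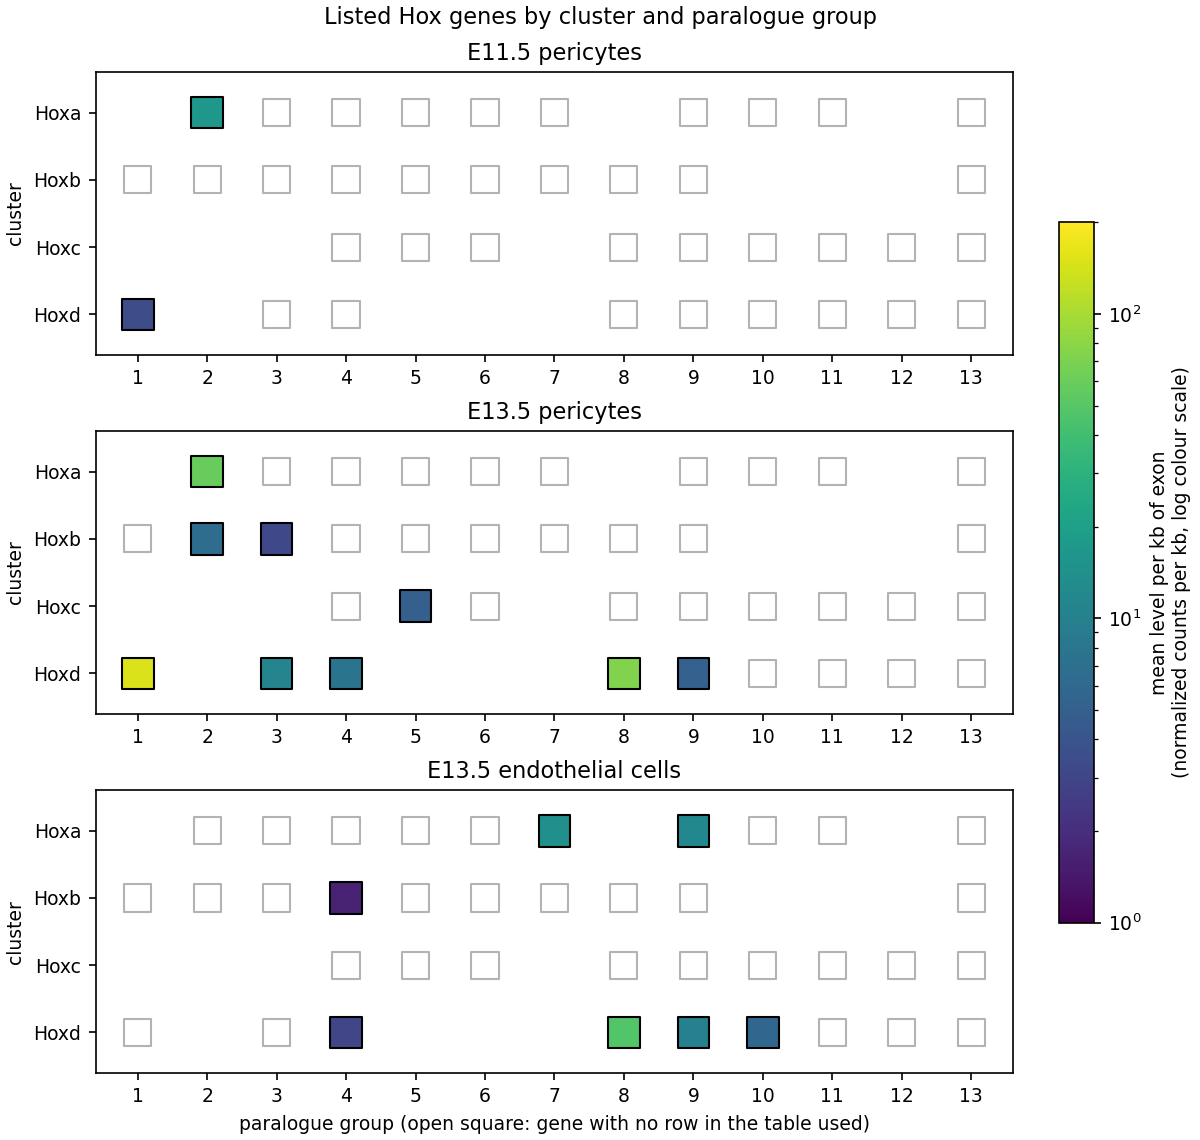
Hox genes listed in each table and reported by name, by cluster (rows) and paralogue group (columns), with colour for the level per kilobase of exon (mean of the authors' 2 group means). The E11.5 places drawn, 2 in all, lie in groups 1 to 3, those of E13.5 pericytes, 9 in all, from group 1 to 9, and those of E13.5 endothelial cells, 7 in all, from group 4 to 10.

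Per kilobase, groups 1 to 3 held 71.3% of the summed Hox level in E13.5 pericytes, groups 4 to 8 held 27.1% and groups 9 to 13 held 1.59%. In endothelial cells no gene of groups 1 to 3 was listed, and groups 4 to 8 held 70.7% and groups 9 to 13 held 29.3%. In E11.5 pericytes all of it, 100%, lay in groups 1 to 3, through 3 genes with means of 6.27 to 29.4. The annotation holds 8, 15 and 16 genes in these 3 classes. The grid of listed genes by cluster and group shows the genes behind these shares. The shares depend on which genes have a row, so a difference in position between the populations cannot be read from them alone. In E13.5 pericytes, groups 1 to 3 held 69.1% of the summed level in mutants and 73.6% in controls, and in endothelial cells groups 4 to 8 held 69.8% in mutants and 71.7% in controls. These shares are sums of group means and have no test.

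Cluster D, on chromosome 2 (chr2:74668310-74765142, mm10), gave most of the Hox level at E13.5. It held 77.2% of the summed level per kilobase in pericytes, through Hoxd1, Hoxd3, Hoxd4, Hoxd8 and Hoxd9, and 70.5% in endothelial cells, through Hoxd4, Hoxd8, Hoxd9 and Hoxd10. Cluster A, on chromosome 6, held 18.2% in E13.5 pericytes, all of it Hoxa2, and 27.7% in endothelial cells, through Hoxa7 and Hoxa9 (36.6%, and 61.9% for cluster D, with the longest transcript as length). Cluster B, on chromosome 11 (chr11:96194316-96368256), held 3.04% and 1.78%. Cluster C, on chromosome 15 (chr15:102921103-103036852), was listed in E13.5 pericytes only, through Hoxc5, with 1.52%.

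In E11.5 pericytes all 3 listed Hox genes had higher means in mutants, and none was called. Hoxa2, which patterns the hindbrain and the second pharyngeal arch and lies at chr6:52162417-52164831 on the minus strand, had means of 40.9 (mutant) and 17.96 (control) in the authors' deposited table. The ratio was 2.28 (95% interval 0.909 to 5.71), a log2 ratio of 1.19 (SE 0.68), with p = 0.0790 and an FDR of 0.345 in the authors' deposited table. Hoxd1, a group 1 gene (chr2:74762980-74765142, plus strand), had means of 7.89 and 4.66, a ratio of 1.69 (0.647 to 4.43) and no FDR in the authors' deposited table. Both intervals include 1 and reach past a 2-fold rise.

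The count of called members at E11.5 was 0 of the 2 Hox genes with an FDR from the authors' DESeq2 table, beside 3.35% of all genes with an FDR. At an unadjusted p under 0.05 it was 0 of 3, beside 16.2% of all genes. The median log2 ratio of the 3 listed Hox genes was 0.76, and that of all genes tested was -0.00. Listed genes lay on the mutant side in 3 of 3 cases for Hox and in 48.0% of all genes with a p-value.

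In E13.5 pericytes 9 Hox genes were listed, 6 with higher and 3 with lower means in mutants, and none was called. Hoxd1 had the highest level per kilobase (148, at the 63.5th percentile of all genes), with means of 284 (mutant) and 267 (control) in the authors' deposited table. Its ratio was 1.06 (95% interval 0.635 to 1.78). Hoxd8, a trunk gene at chr2:74704615-74707933 on the plus strand, came next with 73.7 per kilobase (49.4th percentile), means of 217 and 187 and a ratio of 1.16 (0.906 to 1.49), from the authors' deposited table. It had the smallest p of the 9 in the authors' deposited table, 0.235. Hoxa2 followed, with 58.0 per kilobase.

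Hoxa2 had means of 84.3 (mutant) and 122 (control) at E13.5 in the authors' deposited table, a ratio of 0.693. The implied SE of its log2 ratio of -0.53 was 1.55, and the 95% interval ran from 0.0844 to 5.70. The median SE of the 200 genes nearest in level was 0.18, and the SE of Hoxa2 was larger than that of each of them. Which libraries were high or low cannot be given from group means. In the plot of spread against level, Hoxa2 stands highest above the band of all genes.

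The group 2 and 3 genes of clusters B and D were lower. Hoxd3, which shapes the neck vertebrae and is known in endothelial cells as a promoter of vessel growth, had means of 47.1 and 47.0, a ratio of 1.00 (0.667 to 1.502) in the authors' deposited table. Hoxb2, a hindbrain gene, had means of 21.1 (mutant) and 24.4 (control), a ratio of 0.865 (0.369 to 2.03) in the authors' deposited table. Hoxb3, also a hindbrain gene, had means of 14.6 and 12.2 and a ratio of 1.20 (0.375 to 3.85) in the authors' deposited table. Each of these intervals includes a ratio of 1, and those of Hoxb2 and Hoxb3 also include a 2-fold change.

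Of the genes of groups 4 to 9 in E13.5 pericytes, Hoxd4, a group 4 gene, had means of 21.5 (mutant) and 23.5 (control) (ratio 0.918, interval 0.550 to 1.53) in the authors' deposited table. Hoxc5, a gene of the neck and upper trunk, had means of 18.2 and 11.6 (ratio 1.57, 0.657 to 3.73) in the authors' deposited table. Hoxd9, a gene of the lower trunk and limbs, had means of 13.4 and 8.09 (ratio 1.66, 0.702 to 3.93), with no FDR in the authors' deposited table. The ratios of Hoxc5 and Hoxd9 were the largest of the 9, at low levels and with wide intervals.

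The count of called members in E13.5 pericytes was 0 of 8 with an FDR from the authors' DESeq2 table, all 8 at an FDR of 1.00, beside 0.388% of all genes. At an unadjusted p under 0.05 it was 0 of 9, beside 3.61% of all genes. The median log2 ratio of the 9 was 0.09 and that of all genes tested 0.00. The 95% intervals of 4 genes (Hoxd1, Hoxd3, Hoxd4 and Hoxd8) lay inside a 2-fold change in either direction, and that of 1, Hoxd8, inside a 1.5-fold change. For the other 5, a 2-fold change in at least 1 direction lies within the interval. Of 10 listed pericyte markers, 1 rose (Cox4i2) and 1 fell (Rgs5) by the authors' DESeq2 FDR. Of 8 endothelial markers 1 fell (Erg), and 7 had higher means. None of 6 listed erythroid markers was called, but all 6 had higher means, with sums of 1636 (mutant) and 384 (control) in the authors' deposited table. The part of these cells in the Hox values was not tested.

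**Figure D2:**
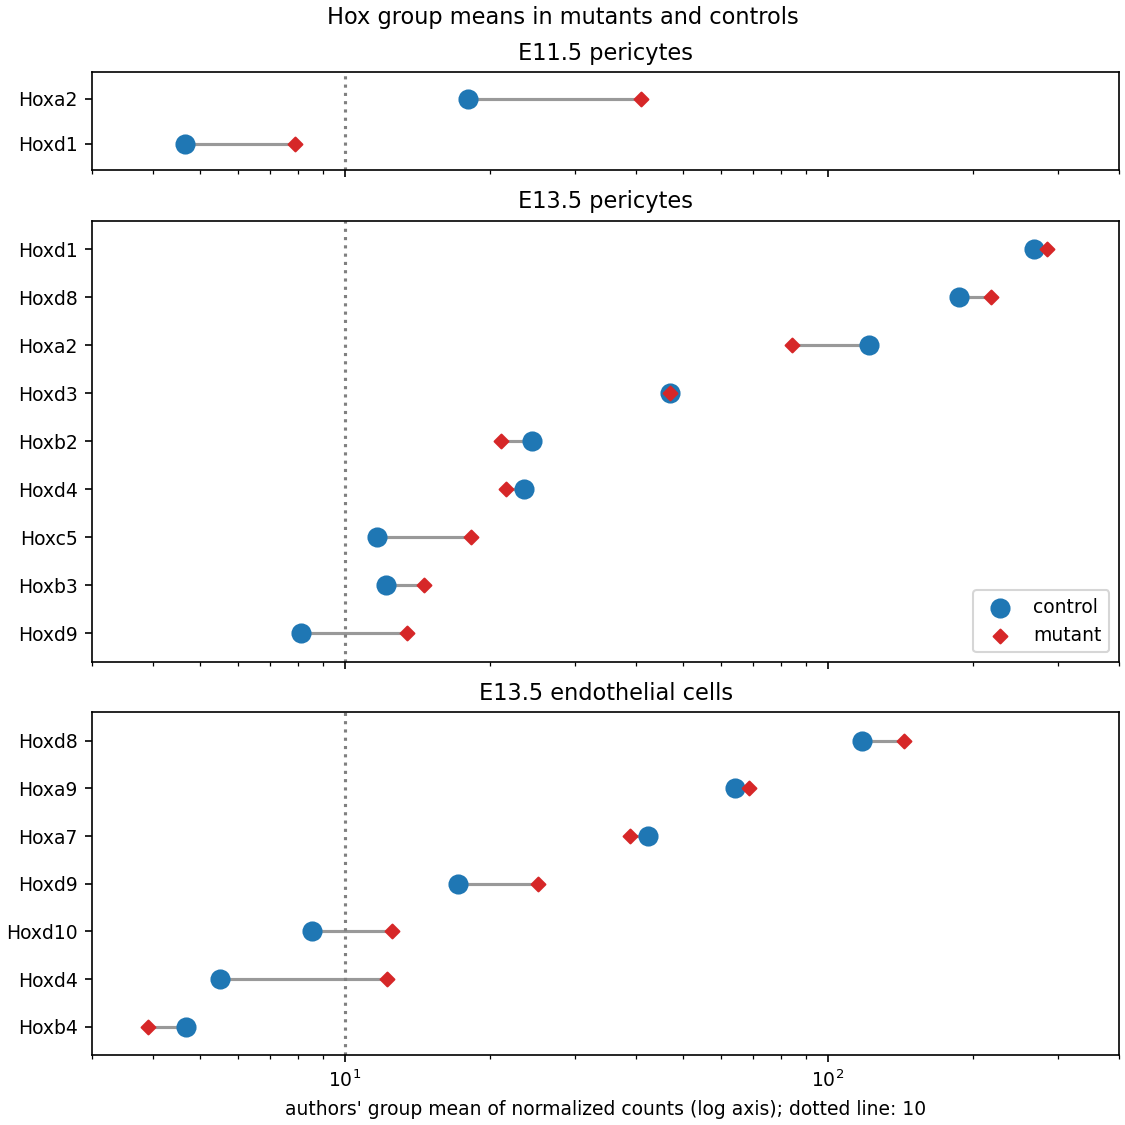
The authors' group means of normalized counts (log axis) of each Hox gene reported by name, in controls (blue circles) and mutants (red diamonds), 1 panel per table, with a dotted line at 10. The 2 Hox genes drawn for E11.5 pericytes are higher in mutants; at E13.5 the highest means were those of Hoxd1 (284 and 267) and Hoxd8 (217 and 187) in pericytes and Hoxd8 (144 and 118) in endothelial cells. No spread per library is drawn.

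In E13.5 endothelial cells 7 Hox genes were listed, 5 with higher and 2 with lower means in mutants, and none was called. Hoxd8 led with 47.6 per kilobase (40.0th percentile of all genes), and its means were 144 (mutant) and 118 (control) in the authors' deposited table. Its ratio was 1.22 (95% interval 0.807 to 1.85; FDR 0.661 in the authors' deposited table). Hoxa7, a trunk gene at chr6:52214491-52221854 on the minus strand, had means of 38.9 and 42.5 and a ratio of 0.914 (0.468 to 1.79; FDR 0.922 in the authors' deposited table). Hoxa9, which acts in blood stem cells and in endothelium (chr6:52223100-52231089, minus strand), had means of 68.5 and 64.1, a ratio of 1.07 (0.429 to 2.66; FDR 0.960 in the authors' deposited table). The order of levels rests on means without a spread per library, and Hoxa7 and Hoxa9 lay close together, at 14.1 and 11.9 per kilobase.

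The other 4 endothelial members were lower. Hoxd9 had means of 25.1 (mutant) and 17.1 (control) and a ratio of 1.47 (0.646 to 3.33; FDR 0.673 in the authors' deposited table). Hoxd10, known for holding endothelial cells in a resting state, had means of 12.5 and 8.53 (ratio 1.46, 0.477 to 4.49) in the authors' deposited table. Hoxd4 had means of 12.2 and 5.51 (ratio 2.22, 0.697 to 7.07), and Hoxb4, known from blood stem cells, 3.91 and 4.68 (ratio 0.835, 0.175 to 3.99), both without an FDR in the authors' deposited table. The 4 cluster D genes all had higher means in mutants, and each interval includes 1.

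The count of called members in endothelial cells was 0 of 4 with an FDR from the authors' DESeq2 table, beside 7.3% of all genes. At an unadjusted p under 0.05 it was 0 of 7, beside 18.2% of all genes. The median log2 ratio was 0.29 for the 7 Hox genes and -0.01 for all genes tested. Only the interval of Hoxd8 lay inside a 2-fold change. Markers of blood cells moved in the same comparison: 6 of 8 erythroid markers and 3 of 10 myeloid markers rose, with summed means of 1222160 against 45605 and of 19811 against 11692 for mutants against controls in the authors' deposited table. Of all genes, 5.11% rose and 2.19% fell. Of the endothelial markers 1 of 10 fell, Kdr, with means of 20590 (mutant) and 27972 (control) (FDR 0.0209), and 8 of 10 had lower means. Of the fibroblast and meninges markers 1 of 8 rose, Slc6a13, with means of 173 and 84.3 (FDR 0.0290), both in the authors' deposited table. None of these markers was called with the spread rescaled to a standard normal median (adjusted p 0.0674 to 0.639 from the DESeq2 values). The part of blood cells in the endothelial Hox values, and in those of Hoxa9 and Hoxb4 in particular, was not tested.

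**Figure D3:**
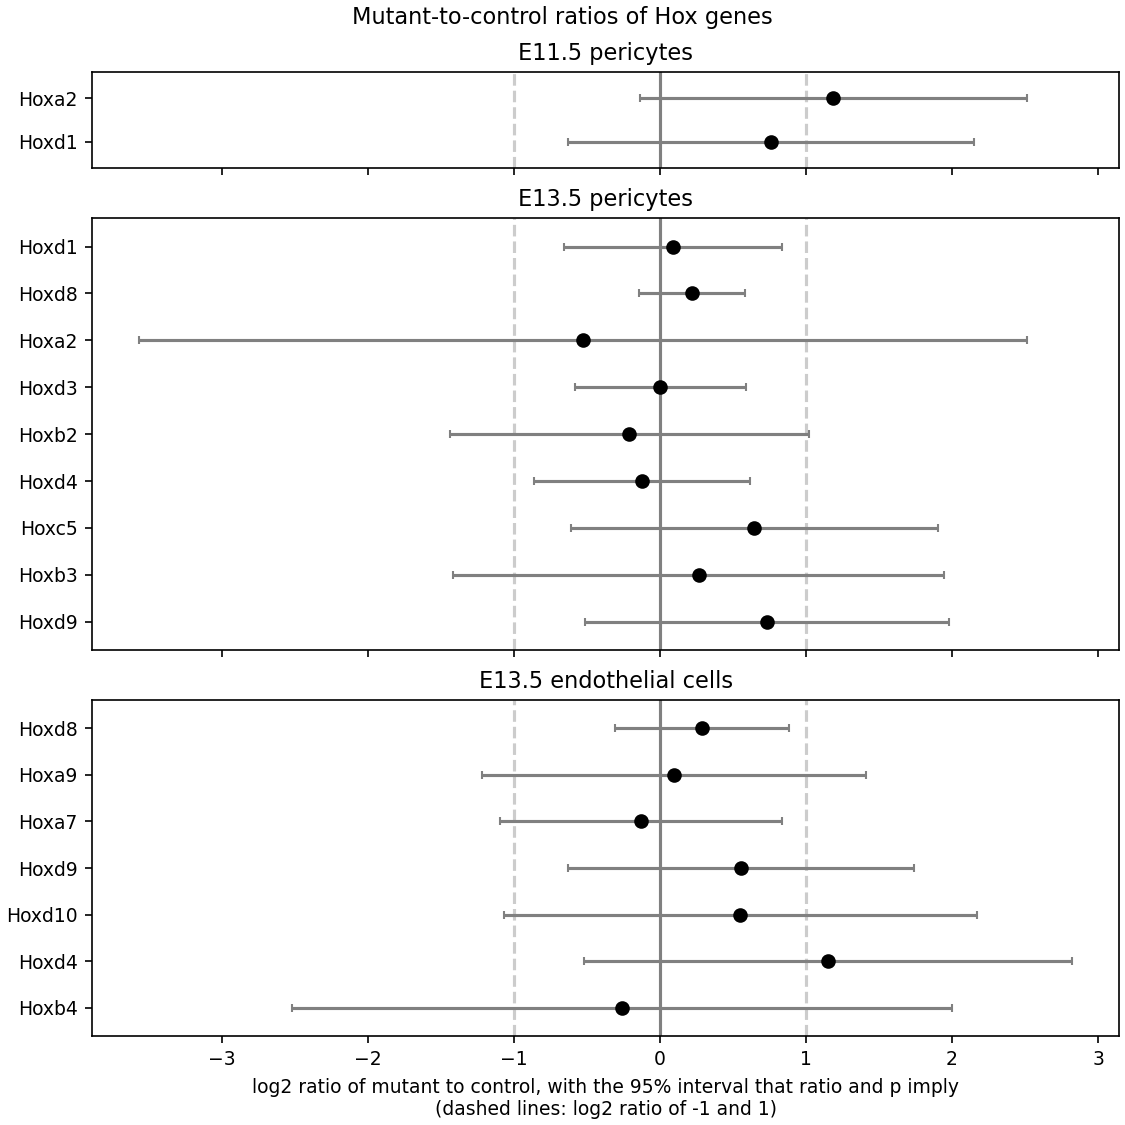
Log2 ratio of mutant to control (horizontal axis) of each Hox gene reported by name, with bars for the 95% interval worked out from the authors' ratio and p, 1 panel per table and dashed lines at -1 and 1. All 18 intervals drawn include a log2 ratio of 0; that of Hoxa2 in E13.5 pericytes is the widest (ratio 0.0844 to 5.70), and that of Hoxd8 in E13.5 pericytes is narrow (ratio 0.906 to 1.49).

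Set side by side, the 2 stages of pericytes share Hoxa2 and Hoxd1. The log2 ratio of Hoxa2 was 1.19 at E11.5 and -0.53 at E13.5, a difference of -1.72 (95% interval -5.03 to 1.60; FDR 0.698 over 18267 genes by the difference of both DESeq2 log2 ratios). That of Hoxd1 was 0.76 and 0.09, a difference of -0.67 (-2.24 to 0.90). Only Hoxa2 had an FDR in both tables and so entered the adjustment, and Hoxd1 did not. Hoxa2 did not pass, beside 1.43% of all genes that did. The level of Hoxd1 lay at the 7.26th percentile of its table at E11.5 and at the 53.5th at E13.5, and that of Hoxa2 at the 26.0th and the 40.2nd. No test was made of levels across tables.

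The 2 cell types at E13.5 share Hoxd4, Hoxd8 and Hoxd9. The log2 ratio of Hoxd8 was 0.22 in pericytes and 0.29 in endothelial cells, a difference of 0.07 (-0.63 to 0.77; FDR 0.959 over 16920 genes by the difference of both DESeq2 log2 ratios). For Hoxd4 the difference was 1.27 (-0.55 to 3.10) and for Hoxd9 it was -0.18 (-1.90 to 1.54). Only Hoxd8 had an FDR in both tables and so entered the adjustment, and Hoxd4 and Hoxd9 did not. Hoxd8 did not pass, beside 3.94% of all genes that did. The interval of Hoxd8 leaves room for a difference of up to 0.77 on the log2 scale.

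Hox ratios were imprecise for their level. All 19 values, 3 at E11.5, 9 in E13.5 pericytes and 7 in endothelial cells, had an implied SE above the median of the 200 genes nearest in level. Among all genes the share above the running median was 49.9%, 49.7% and 49.9%. The median Hox SE was 1.04 times the running median at E11.5, 1.45 times in E13.5 pericytes and 1.14 times in endothelial cells. In E13.5 pericytes it reached 8.42 times for Hoxa2, and Hoxb3 (SE 0.86), Hoxb2 (0.63) and Hoxd1 (0.38) lay at or above the 96.5th percentile of their neighbours. The same was seen in lists of other kinds in that table: the SE lay above the neighbours' median for 13 of 13 head mesenchyme factors, 10 of 12 upstream regulators, 10 of 10 pericyte markers, 10 of 10 myeloid markers and 8 of 8 endothelial markers. For Polycomb repressors it did so for 9 of 18. Egr2, which activates Hoxa2 and Hoxb2 in hindbrain segments, had means of 1031 (mutant) and 1655 (control) in the authors' deposited table, with an SE of 0.80 at the 100th percentile of its neighbours. The RNAs Hoxaas2 (SE 1.14) and Hoxb3os (SE 0.79), transcribed within clusters A and B, were also at the 100th percentile. The source of this spread was not tested.

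**Figure D4:**
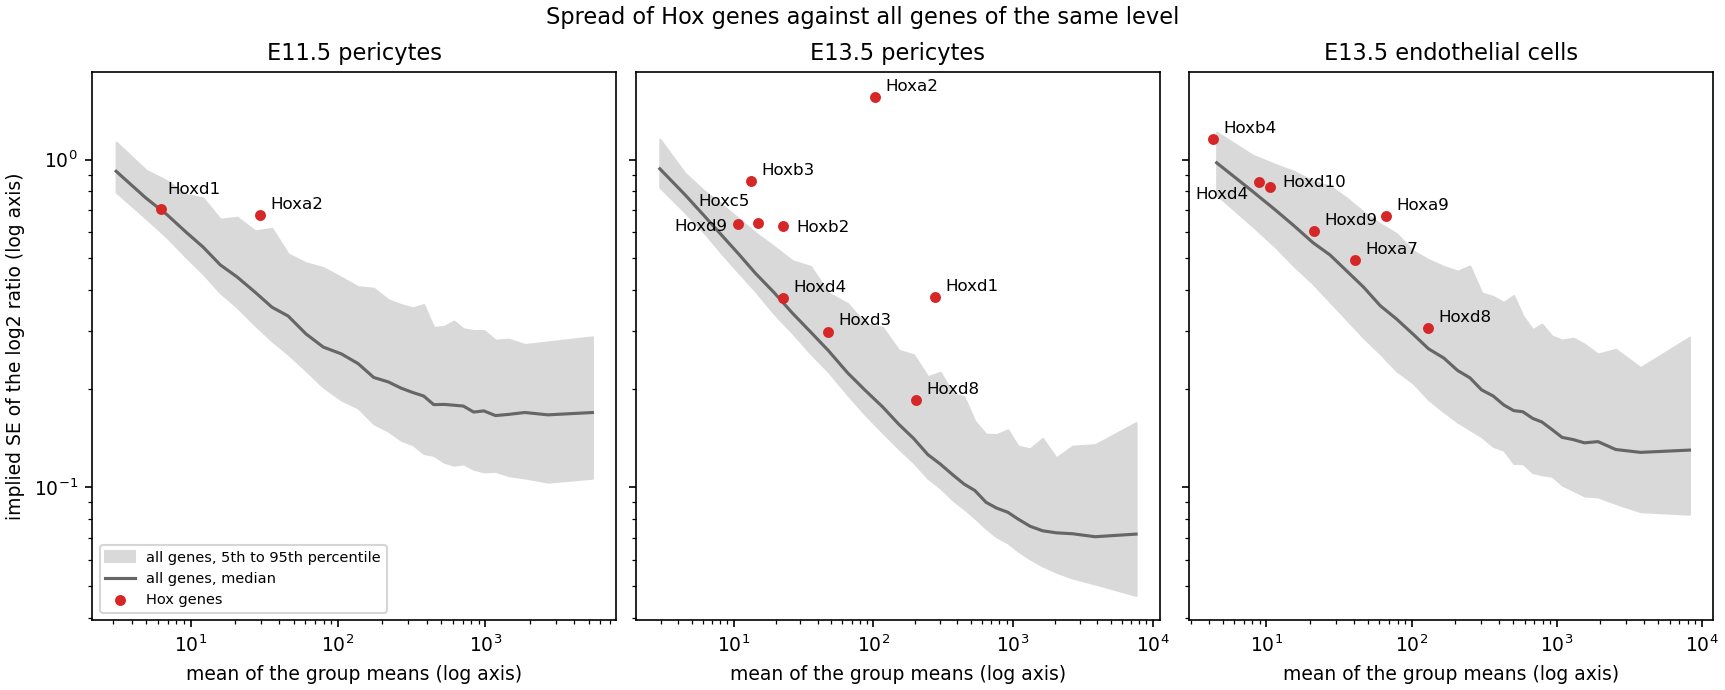
Implied SE of the log2 ratio (log axis) against the mean of the authors' 2 group means (log axis), with the 5th to 95th percentile of all genes as a grey band, their median as a line and Hox genes as red points. All 18 Hox points drawn lie above the median of the nearest genes, and Hoxa2 in E13.5 pericytes lies farthest above it.

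Several Hox genes share exons with other transcripts. The antisense RNA Hoxb3os covers 52.9% of the exon bases of Hoxb3 and 27.3% of those of Hoxb2, and it was listed in E13.5 pericytes with means of 11.6 (mutant) and 17.6 (control) in the authors' deposited table. Hoxd3 and Hoxd4 share 388 exon bases, and Gm28230 on the same strand covers 53.1% of Hoxd3 and 39.1% of Hoxd4, with means of 39.9 and 42.9 in E13.5 pericytes in the authors' deposited table. Whether the counting used strand has no statement in the labels, so reads of antisense pairs cannot be told apart. Hoxd3, Hoxd4 and Gm28230 lie on the same strand, where a strand setting would not separate them. Hoxa7 shares 20.4% of its exon bases with the antisense RNA Hoxaas3, and Hoxa2 15.0% with Gm28308 on its own strand, neither of them listed. The antisense RNA Hoxd3os1 covers 11.8% of the exon bases of Hoxd4 and 8.28% of those of Hoxd3. It was listed in E13.5 pericytes and in endothelial cells, where its mean over both groups was 43.4 and that of Hoxd4 8.88. Smaller shares were found for Hoxd10 (5.73%), Hoxc5 (5.37%) and Hoxa9 (1.52%). The values of all these Hox genes are uncertain to the extent of their overlaps. Hoxd1, Hoxd8 and Hoxd9 share no exon with another annotated gene. Haglr, the RNA beside Hoxd1, had means of 124 and 118 in E13.5 pericytes, and Hoxd3os1 had 31.7 and 55.1 in endothelial cells (FDR 0.390), both not called in the authors' deposited table.

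Of the genes that flank the clusters, 10, 10 and 8 were listed in E11.5 pericytes, E13.5 pericytes and endothelial cells. The 1 called gene was Cbx5, a heterochromatin protein gene beside cluster C, which fell in mutant endothelial cells with means of 4315 and 6073 (log2 ratio -0.49, SE 0.10, FDR 4.7e-05 in the authors' deposited table), beside 2.19% of all genes. With the rescaled spread, which sets the median test statistic of all genes to that of a standard normal, its adjusted p from the DESeq2 values was 0.0863. No gene of cluster C itself was listed in that table.

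Genes that work with, before or beside Hox genes were counted in fixed lists. The 9 cofactors of the PBX and MEIS classes, which bind DNA together with Hox proteins, were all listed in all 3 tables, and 0 of 9 were called in each by the authors' DESeq2 FDR. At an unadjusted p under 0.05 it was 1 of 9 in each. Their median log2 ratios were -0.19 in E11.5 pericytes, -0.08 in E13.5 pericytes and 0.00 in endothelial cells. The cofactors were thus listed in all 3 tables, while each table listed at most 9 of 39 Hox genes.

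Of 12 listed upstream regulators of Hox transcription, 2 fell in E11.5 mutant pericytes, beside 2.7% of all genes, and none rose. Both are enzymes of retinoic acid, the signal that switches on Hox genes at the front end of the clusters. Aldh1a2, which makes retinoic acid, had means of 22.9 (mutant) and 99.0 (control) (log2 ratio -2.11, SE 0.47, FDR 0.00158 in the authors' deposited table). Cyp26b1, which breaks it down, had means of 35.0 and 182 (log2 ratio -2.38, SE 0.40, FDR 2.5e-06 in the authors' deposited table). With the spread of the table rescaled, so that the median test statistic of all genes matches a standard normal, neither was called (adjusted p 0.596 and 0.0924 from the rescaled DESeq2 values). The median of the list was -0.22, and Hoxa2 had a higher mean in the same mutants without being called. In E13.5 pericytes 0 of 12 and in endothelial cells 0 of 11 were called by the authors' DESeq2 FDR, with 2 in each at an unadjusted p under 0.05. At E13.5 the pericyte means were 920 in mutants and 968 in controls for Aldh1a2 and 1722 and 2147 for Cyp26b1 in the authors' deposited table.

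Forebrain and midbrain position factors, which mark the regions that lack Hox expression, were listed beside the Hox genes in every table. At E11.5, 2 of 7 listed factors fell in mutants, beside 2.7% of all genes: Emx2, a factor of the dorsal forebrain, with means of 15.4 and 52.1 (log2 ratio -1.76, SE 0.42, FDR 0.00431), and En1, a factor of the midbrain and hindbrain border, with 57.5 and 150.0 (log2 ratio -1.38, SE 0.43, FDR 0.0405), both in the authors' deposited table. With the rescaled spread neither was called (adjusted p 0.752 and 0.995 from the DESeq2 values). The list's median log2 ratio was -0.60. In E13.5 pericytes all 12 were listed and 0 of 12 were called by the authors' DESeq2 FDR, with 0 at an unadjusted p under 0.05. Their means in the authors' deposited table were 690 in mutants and 770 in controls for En1, 377 and 366 for Emx2 and 189 and 237 for Otx2. In endothelial cells 0 of 5 listed were called, with 1 at an unadjusted p under 0.05.

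Head mesenchyme factors stood above the Hox genes in number: 13 of 13 were listed in both pericyte tables. At E11.5, 1 of 13 fell, beside 2.7% of all genes: Barx1, a factor of the jaw arches, with means of 9.40 in mutants and 39.0 in controls (log2 ratio -2.05, SE 0.64, FDR 0.0449 in the authors' deposited table), and 11 of 13 had lower means (median log2 ratio -0.71). Barx1 was not called with the rescaled spread (adjusted p 0.995) or with adjustment over every gene with a DESeq2 p (0.0506). Of the trunk and limb mesenchyme factors, 12 of 15 were listed at E11.5 and 14 of 15 in E13.5 pericytes, and 0 were called in either by the authors' DESeq2 FDR, with 5 and 2 at an unadjusted p under 0.05. Their medians were -0.67 and -0.01. At E11.5, pericyte markers (5 of 10) and fibroblast markers (4 of 8) also fell in mutants, beside 2.7% of all genes, with summed means of 8000 against 10667 and of 46276 against 69049 in the authors' deposited table. Myeloid markers (2 of 9 called, 9 of 9 with lower means) and endothelial markers (1 of 7 called, 7 of 7 with lower means) were lower as well, with summed means of 889 against 1725 and of 459 against 995 in the authors' deposited table. With the rescaled spread none of these 12 markers was called (adjusted p 0.430 to 0.995 from the DESeq2 values). The part of these 4 kinds of cells in the fall of Aldh1a2, Cyp26b1, Emx2, En1 and Barx1 was not tested. No gene of the head list was called in E13.5 pericytes or endothelial cells, with 0 of 13 and 1 of 12 at an unadjusted p under 0.05.

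**Figure D5:**
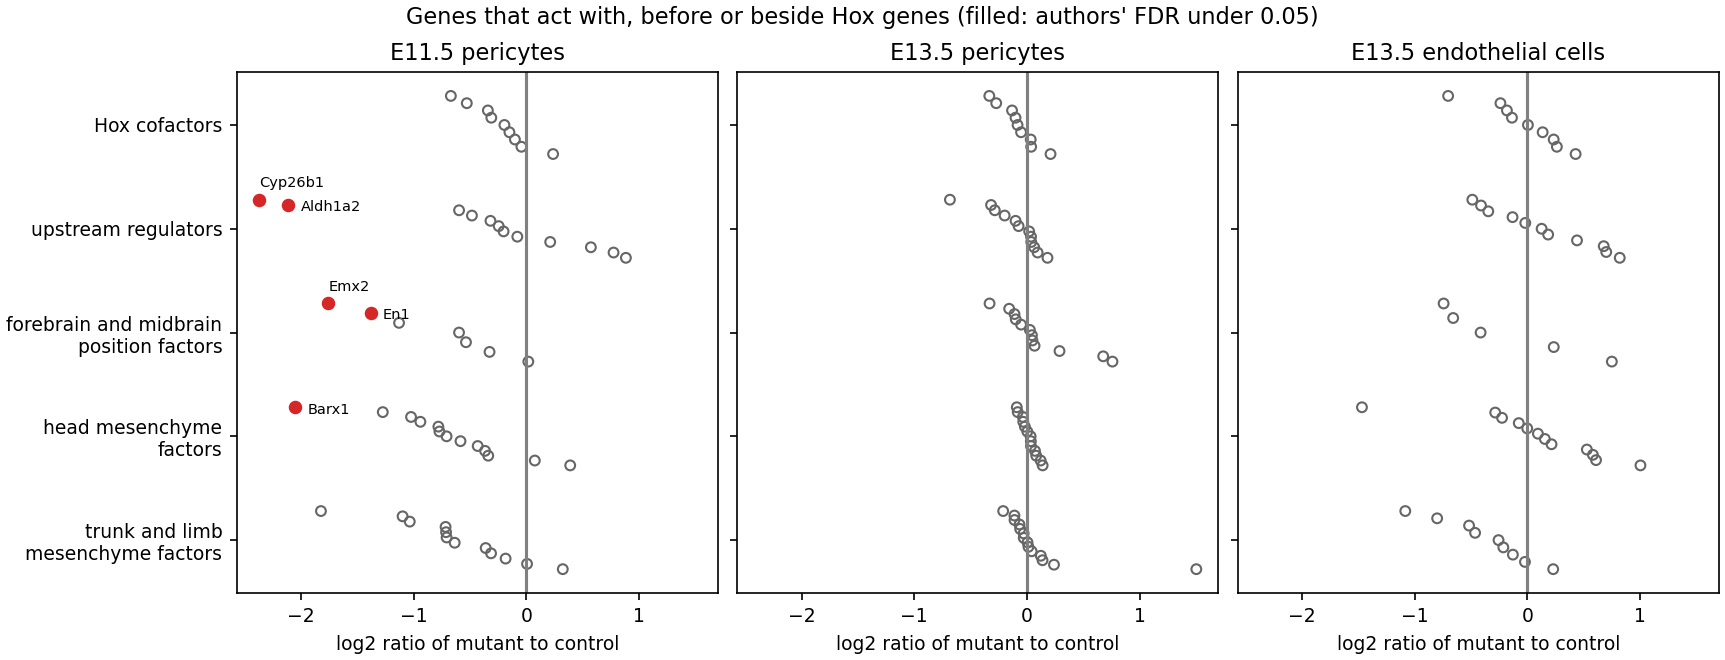
Log2 ratio of mutant to control for each listed gene of 5 lists, 1 panel per table, with genes under the authors' FDR of 0.05 filled and named. The 5 called genes, Cyp26b1, Aldh1a2, Emx2, En1 and Barx1, are all in E11.5 pericytes and all lower in mutants; none of the genes drawn for E13.5 is called.

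Markers of the cells that carry Hox expression in the hindbrain were low as a list. Their median level per kilobase lay at the 6.76th percentile at E11.5, the 7.73rd in E13.5 pericytes and the 18.3rd in endothelial cells. Isl1 was the highest of them, with means over both groups of 38.8, 35.9 and 47.4 in the authors' deposited tables. Of 8 hindbrain and motor neuron markers, 5 were listed at E11.5, 4 in E13.5 pericytes and 1 in endothelial cells, with summed means of 57.3 in mutants and 93.5 in controls at E11.5, 58.3 and 63.6 in E13.5 pericytes and 46.9 and 47.9 in endothelial cells in the authors' deposited table. General neuron markers were listed in 10 of 10 cases in each table, with summed means of 7829 against 6851, 9811 against 8999 and 3548 against 3004 for mutants against controls in the authors' deposited tables. The part of neurons in the Hox values was not tested.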

How the data were processed

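Sorted cells gave messenger RNA libraries (KAPA chemistry, NovaSeq sequencer, per the labels' protocols). The submitters' processing notes name the build mm10 and, without versions, Bowtie2, DESeq2 and Partek. The annotation, counting, filters and model are not given in the sources used here. Columns, per the file headers, are the authors' p-value, step-up FDR, mutant-over-control ratio, the same as a signed fold, and a least-squares mean for each group. The authors' means were read as a signal, a mean normalized count of unstated scale, so the depth is unknown and counting intervals were not possible. Of 21860, 23792 and 20523 listed genes, 19301, 20084 and 18132 had a deposited FDR, and recomputing it by Benjamini-Hochberg gave the same values.

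The log2 of the deposited ratio was taken, and its SE from the normal deviate of the p, taken as a two-sided Wald p. Differences between tables were divided by the root of the summed squared SE and adjusted by Benjamini-Hochberg. The plan foresaw edgeR on library counts or else the authors' values, and the latter were used. The labels do not say whether samples came from separate litters, so p-values reflect only the spread among these samples. Positions and exon lengths are from GENCODE on mm10 (97.3% to 97.4% of symbols found) and promoters from RefSeq. The software was Python 3.11.15 with scipy 1.17.1, pandas 2.3.3, numpy 2.4.6 and matplotlib 3.10.9, and steps were tested on simulated data.

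Members and the 18 lists (199 genes) were chosen with earlier results of these data known. Named are Hox genes with a mean over 10, those highest per kilobase, up to 3 called genes of a list by smallest p, and Tgfbr1. Members under that mean were also given, to account for all. Egr2, Hoxaas2, Hoxb3os, Hoxd3os1, Haglr, Gm28230, Otx2, Isl1 and Xist were named after their values were seen. So were the E13.5 values of Aldh1a2, Cyp26b1, Emx2 and En1. Some genes of the members and lists are counted but not reported by name here.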

Additional observations from a re-analysis of the deposited data

How the results depend on the processing

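No Hox gene was called in any of the 3 comparisons under the alternatives run: an FDR of 0.1, adjustment over every gene with a p, an absolute log2 limit of 1, a rescaled spread, or ratios recentred to the median or to the summed means. For the 2 differences only the FDR of 0.1 and the rescaled spread were run. Hoxa2 for the stages and Hoxd8 for the cell types, the only Hox genes adjusted there, were not called with either. Counts over all genes moved more. In E11.5 pericytes 646 called genes became 5 with the rescaled spread, 315 with the log2 limit and 1139 at FDR 0.1. In E13.5 pericytes 78 became 142 with the rescaled spread and 17 with the log2 limit. In endothelial cells 1323 became 49, 247 and, recentred to the summed means (a log2 shift of 0.13), 2199. The 262 genes of the stage difference became 2 with the rescaled spread and 447 at FDR 0.1, and the 666 of the cell type difference became 15 with the rescaled spread. The median log2 ratio at E11.5 was 1.19 for the 1 Hox gene over a mean of 10 and 0.76 for all 3. With the longest transcript as length, the endothelial shares moved from 70.7% to 67.4% for groups 4 to 8 and from 29.3% to 32.6% for groups 9 to 13, those of cluster A from 27.7% to 36.6% and those of cluster D from 70.5% to 61.9%. The other 36 values of the Hox results stayed within their limits. Among these, asking for both group means over 10 changed the count of Hox genes above that line from 9 to 8 in E13.5 pericytes. In endothelial cells that count changed from 5 to 4. Of list genes called, the rescaled spread lost 21 of 21 in E11.5 pericytes, 0 of 3 in E13.5 pericytes and 12 of 12 in endothelial cells. No paired analysis was possible because values per library were not used here, and leaving out each replicate was not run for the same reason. Low means, 1 value per group and the lack of depth limit what can be detected in Hox genes.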

Other observations

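Polycomb repressors, which keep Hox clusters silent outside their domains, were listed in full (18 of 18) in each table. In E11.5 pericytes 1 of 18 fell in mutants, Ring1, with means of 186 and 376 (log2 ratio -1.02, SE 0.25, FDR 0.00571 in the authors' deposited table), and the list's median log2 ratio was -0.15. Of 9 trithorax and demethylase genes, which hold Hox genes active, 1 fell at E11.5, Ash2l, with means of 715 and 1102 (log2 ratio -0.62, SE 0.19, FDR 0.0432 in the authors' deposited table). Both shares stand beside 2.7% of all genes, and neither gene was called with the rescaled spread (adjusted p 0.801 and 0.995 from the DESeq2 values). At E13.5 none of the 18 and none of the 9 was called by the authors' DESeq2 FDR in either cell type, with 0 Polycomb genes at an unadjusted p under 0.05 in each, and 0 and 1 of the 9 in pericytes and endothelial cells.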
